A study of Mus musculus with 9 samples.

Results

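The ETS factor genes examined here were Etv2, Fli1, Erg, Ets1, Ets2, Etv6, Elk3, Elf1 and Spi1, the members of the ETS family best known from endothelium and blood. They were chosen by name, 9 of the 21887 protein-coding genes on chromosomes 1 to 19, X and Y, and for each one the Hdac1 and Hdac2 peaks at its promoters, inside it and within 50 kb of it were recorded. The peaks came from chromatin immunoprecipitation and sequencing (ChIP-seq) of haemogenic endothelium, a vessel wall cell that turns into blood, grown from mouse embryonic stem cells of 3 C57BL/6 lines labelled Bry, Hd1_loxlox and Hd2lox. Each line had 1 library with an Hdac1 antibody (Diagenode), 1 with an Hdac2 antibody (abcam) and 1 input library, so n = 3 lines for each antibody, with the inputs not used here. Bry cells were at passage 16 to 19 and cells of the other lines at passage 25 to 30. The labels name no treatment and give no genotype beyond the line names, and lists of peaks cannot be checked against cell type markers.

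Hdac1 and Hdac2 are closely related histone deacetylases that sit together in co-repressor complexes and are brought to chromatin by transcription factors. ETS factors share a DNA-binding domain that recognises a GGAA core. Etv2 starts the endothelial and blood programme in the early embryo, Fli1 and Erg maintain it, and Spi1 (PU.1) drives myeloid and B cell fates. Ets1, Ets2 and Elf1 are mostly activators, while Etv6 and Elk3 are best known as repressors.

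The lists differed in size and in the share of peaks at promoters, which bears on every gene. They held 5161 to 9279 peaks with no scores or counts. Read depth is therefore unknown, and absence of a peak does not show absence of the protein. For Hdac1, 67.6% to 85.0% of peaks lay at promoters of protein-coding genes, against 75.2% for Hdac2 in Bry, 31.3% in Hd2lox and 8.49% in Hd1_loxlox. The Hd1_loxlox Hdac2 list stands apart from the other 5, with 91.5% of its peaks in no other list. The Hd2lox Hdac2 list followed with 63.0%, beside 8.64% to 26.1% for the remaining lists. Counts of genes with Hdac2 at promoters, inside and within 50 kb are given with and without the Hd1_loxlox Hdac2 list. So is the count of genes with a higher mean for Hdac1. Other results that rest on it, such as counts among long genes, at merged sites and away from neighbours, are given only with it.

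A promoter was a window of 1000 bp either side of a transcription start in the RefSeq promoter table of GRCm38 (the assembly called mm10), internal starts included. The table matched 6 of the 9 genes, and for Fli1, Ets1 and Spi1 windows of 1000 bp around both annotated gene ends were used, called gene ends here. The sequences below, from 250 bases before to 50 bases after the start, are shown because 4 of them lie under peaks of 4 or 5 lists, that of Etv2 under peaks of 2 lists and that of the uppermost Erg start under none. The 9 listed starts of the 6 genes also include 2 lower Erg starts and a second Elf1 start, all without a peak and not printed. Capitals mark the ETS core GGAA, or TTCC where it is on the other strand.
Ets2, chr16:95702157-95702456, plus strand: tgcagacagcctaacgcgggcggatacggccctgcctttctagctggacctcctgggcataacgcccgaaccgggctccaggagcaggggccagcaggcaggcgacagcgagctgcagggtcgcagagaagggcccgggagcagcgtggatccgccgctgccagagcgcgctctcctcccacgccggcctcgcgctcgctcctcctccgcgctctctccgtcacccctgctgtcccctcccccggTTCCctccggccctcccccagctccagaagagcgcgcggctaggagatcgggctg
Elf1, chr14:79480944-79481243, plus strand: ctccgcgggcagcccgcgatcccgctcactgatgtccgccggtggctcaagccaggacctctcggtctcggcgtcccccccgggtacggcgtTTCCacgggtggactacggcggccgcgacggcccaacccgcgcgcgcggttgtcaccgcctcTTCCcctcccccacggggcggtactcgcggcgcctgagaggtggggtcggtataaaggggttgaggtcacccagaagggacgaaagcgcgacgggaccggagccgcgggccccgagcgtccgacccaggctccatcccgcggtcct
Elk3, chr10:93311110-93311409, minus strand: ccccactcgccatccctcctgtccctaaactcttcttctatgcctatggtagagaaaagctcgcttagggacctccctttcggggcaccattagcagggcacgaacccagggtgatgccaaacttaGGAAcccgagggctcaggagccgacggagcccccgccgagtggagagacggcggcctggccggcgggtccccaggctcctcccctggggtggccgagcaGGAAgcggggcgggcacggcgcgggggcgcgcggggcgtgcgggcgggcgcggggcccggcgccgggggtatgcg
Etv6, chr6:134035450-134035749, plus strand: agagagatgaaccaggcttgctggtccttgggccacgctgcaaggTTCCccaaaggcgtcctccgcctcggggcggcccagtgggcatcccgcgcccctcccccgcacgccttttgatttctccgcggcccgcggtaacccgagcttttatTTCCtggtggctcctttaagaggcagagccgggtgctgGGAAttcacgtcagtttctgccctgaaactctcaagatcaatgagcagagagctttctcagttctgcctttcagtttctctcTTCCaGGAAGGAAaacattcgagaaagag
Etv2, chr7:30635803-30636102, minus strand: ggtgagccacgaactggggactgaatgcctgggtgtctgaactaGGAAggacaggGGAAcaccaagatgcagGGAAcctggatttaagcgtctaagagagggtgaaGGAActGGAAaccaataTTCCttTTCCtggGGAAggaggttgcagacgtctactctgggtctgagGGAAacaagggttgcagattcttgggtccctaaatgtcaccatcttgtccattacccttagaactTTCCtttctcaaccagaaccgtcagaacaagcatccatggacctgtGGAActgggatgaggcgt
Erg, chr16:95586544-95586843, minus strand: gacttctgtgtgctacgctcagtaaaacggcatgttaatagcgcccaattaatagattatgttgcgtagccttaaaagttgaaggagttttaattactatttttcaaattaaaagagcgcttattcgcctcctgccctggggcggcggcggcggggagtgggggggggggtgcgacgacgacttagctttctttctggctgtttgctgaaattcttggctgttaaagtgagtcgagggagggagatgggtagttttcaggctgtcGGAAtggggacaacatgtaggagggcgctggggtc

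Peaks covered all 300 bases of the Elk3 sequence in 5 lists, and of the Ets2, Elf1 and Etv6 sequences in 4 lists each. In the Hd2lox Hdac2 list the peaks covered 179 bases of the Ets2 sequence and 207 of the Elf1 sequence. The Etv2 sequence was covered whole in the Hd1_loxlox Hdac1 list and in the Bry Hdac2 list. No base of the Erg sequence was covered. CpG content did not follow this order at every gene. The ratio of observed to expected CpG was 0.791 for Ets2, 1.08 for Elf1, 0.816 for Elk3 and 0.693 for Etv6, beside a median of 0.853 over 6466 promoters with Hdac1 in at least 2 lines (quartiles 0.718 and 0.971). Of the 4 starts without a peak, the printed Erg start was at 0.941, the other Erg starts were at 0.275 and 0.191, and the second Elf1 start was at 0.202. Etv2, with peaks in 2 lists, was at 0.266. These compare with a median of 0.256 over 11273 promoters without a peak in any list (quartiles 0.126 and 0.480).

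The Etv2 sequence held 11 matches to GGAA on either strand, a number reached by 45 of 21263 promoters (0.212%). The median promoter held 3, Etv6 held 6, and the printed sequences of Elf1 and Elk3 held 2 each and those of Ets2 and Erg 1 each. The other Erg starts held 2 and 4, and the second Elf1 start 1. At least 1 match was present in 95.7% of all promoters, so the presence of the core sets none of these genes apart. The longer ETS site CCGGAAGT, which contains the core, was in 5.15% of all promoters and in none of the 9 sequences. Searched on both strands, the KLF and SP site GGGCGG was in 5 of the 9, the printed ones of Ets2, Elf1, Elk3, Etv6 and Erg. It was in 46.2% of all promoters and in 74.6% of those with Hdac1 in at least 2 lines. The Runx site TGTGGT (15.0% of all promoters) and the Smad site GTCTAGAC (0.226%) were in none of the 9. The E-box CANNTG (69.0%), the GATA site AGATAA (9.65%) and the AP-1 site TGANTCA (6.99%) were in none of the 6 printed, but the lowest Erg start held 2 E-boxes and a GATA site, and the second Elf1 start held 3 E-boxes and an AP-1 site. A missing match says only that these letters are not in this window.

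The first comparison asked which ETS factor genes carried Hdac1 or Hdac2 at a promoter. Hdac1 was at a promoter or gene end of 5 of the 9 genes in at least 2 of 3 lines (Fli1, Ets2, Etv6, Elk3 and Elf1), beside 30.8% of all protein-coding genes. At Ets2, Etv6, Elk3 and Elf1 it was in all 3 lines, beside 15.0% of all genes. Hdac2 met the rule of 2 lines at 3 of the 9 (Ets2, Elk3 and Elf1), beside 10.8% of all genes, and in all 3 lines at none (0.562% of all genes). Every gene with Hdac2 at a promoter in at least 2 lines also had Hdac1 there, as did 88.8% of all genes with Hdac2. Erg had no peak at a listed start in any list, and Ets1 and Spi1 had none at either annotated gene end. Of all genes, 52.0% had no peak in such windows. Internal starts of Ets1 and Spi1 were not searched, so whether their promoters carry peaks cannot be told. Long genes carried promoter peaks more often. Among genes of 50 kb or more, a cut chosen after the lengths were seen, Hdac1 met the rule of 2 lines at 4 of 6 members and 42.8% of all such genes, and Hdac2 at 2 of 6 and 20.6%. These counts have no test, because the genes were chosen with earlier results of these data known.

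The Hdac2 count depended on which lists were in use. It was 2 (Ets2 and Elf1) without the Hd1_loxlox Hdac2 list, 1 (Elk3) without Hd2lox and 0 without Bry, when 10.0%, 1.26% and 0.649% of all genes met the rule. The Hdac1 count was 4 without Bry or without Hd1_loxlox, in both cases through the loss of Fli1, and 5 without Hd2lox. The shares of all genes were then 17.8%, 17.1% and 25.9%. With a line or list left out, the rule of 2 lines asked for both remaining lists of that antibody, so no count could rise.

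**Figure D1:**
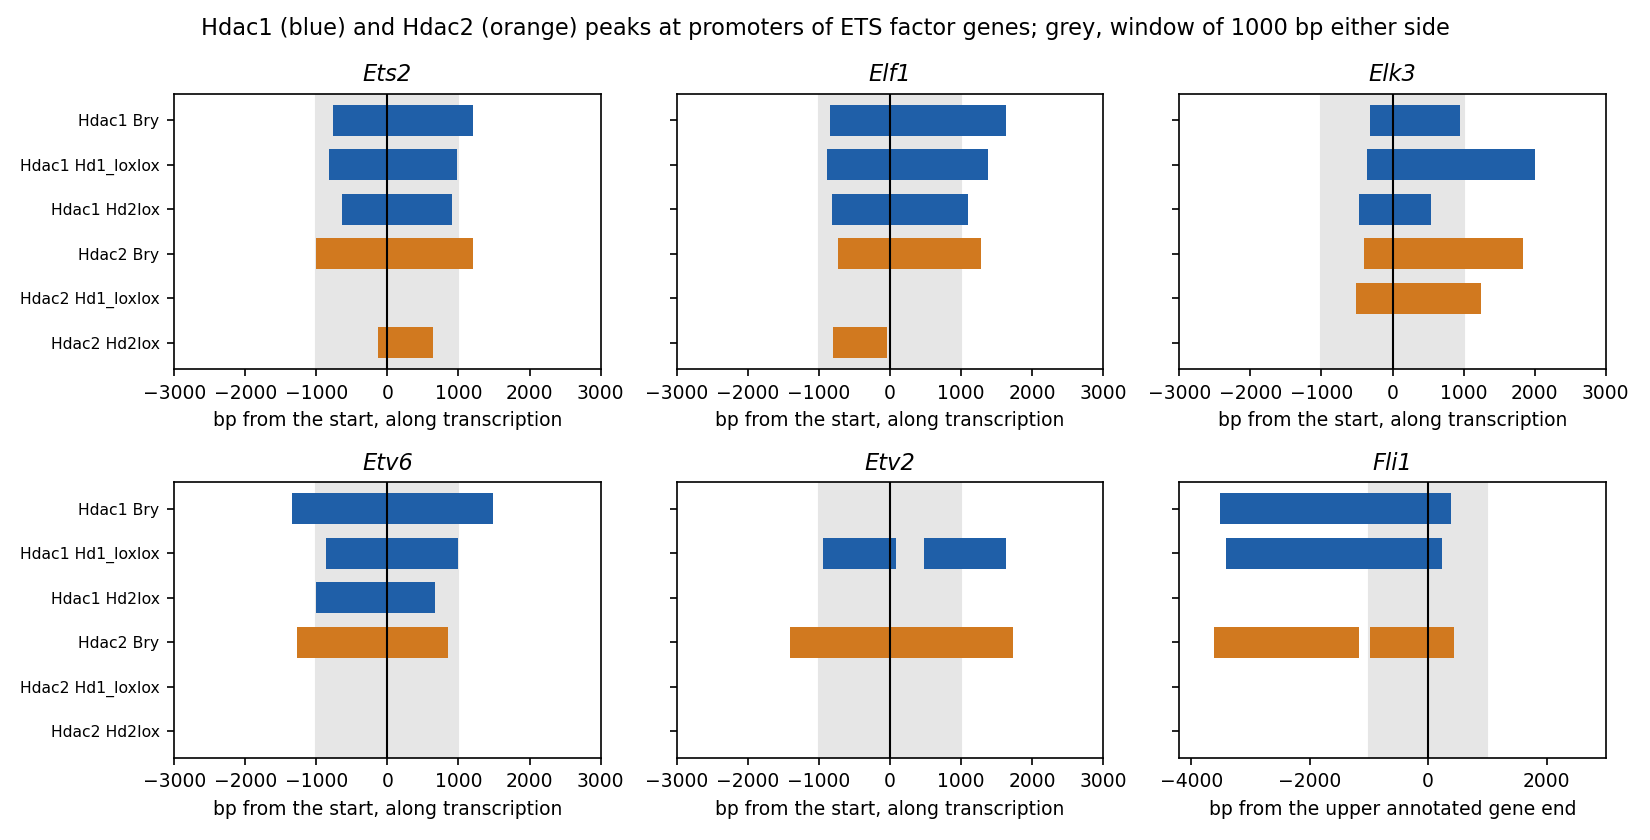
Peak extents of the 6 lists (rows) at 6 ETS factor genes; the x axis gives bp from the transcription start in the direction of transcription, or for Fli1 bp from the upper annotated gene end, and grey marks the window of 1000 bp either side. Hdac1 peaks of all 3 lines span the starts of Ets2, Elf1, Elk3 and Etv6, and the Hd1_loxlox Hdac2 list has a bar at Elk3 alone.

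Ets2, an activator that responds to growth factor signalling, lies on chromosome 16 at 95702407-95721049 and had 1 listed start. Hdac1 peaks ran from -768 to 1201 bp of that start in Bry, from -820 to 983 bp in Hd1_loxlox and from -641 to 912 bp in Hd2lox. The Hdac2 peak ran from -1006 to 1200 bp in Bry and from -129 to 637 bp in Hd2lox, and Hd1_loxlox had none. The 3 Hdac1 peaks and the Bry Hdac2 peak thus had similar extents, 1554 to 2207 bp, and the Hd2lox Hdac2 peak was narrower at 767 bp. All but that one also reached a window of Gm31989, which is not protein-coding.

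Elf1, an ETS activator of blood and vessel genes, lies on chromosome 14 at 79481174-79582491 with listed starts at 79481194 and 79515674. All promoter peaks were at the first start, and the second had none. Hdac1 peaks ran from -846 to 1627 bp in Bry, from -892 to 1377 bp in Hd1_loxlox and from -810 to 1099 bp in Hd2lox. The Hdac2 peak of Bry ran from -734 to 1285 bp. In Hd2lox the Hdac2 peak ran from -803 to -44 bp, so it ended before the start and 24 bp outside the annotated gene. These 5 peaks also lay in the promoter windows of the neighbours Wbp4, a splicing factor gene, and the tRNA gene n-TEttc4, so they cannot be assigned to Elf1 alone.

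Elk3, also called Net, a repressor at serum response genes, lies on chromosome 10 at 93247415-93311159 with its start at the upper end. Hdac1 peaks ran from -313 to 952 bp in Bry, from -362 to 1998 bp in Hd1_loxlox and from -475 to 535 bp in Hd2lox. Hdac2 peaks ran from -408 to 1829 bp in Bry and from -513 to 1239 bp in Hd1_loxlox, and Hd2lox had none. No other gene had a promoter window there. Elk3 was the member with a promoter peak in the Hd1_loxlox Hdac2 list, which had promoter peaks at 2.12% of all genes. That peak, 1753 bp wide, was at the 96.3 percentile of width in its list, while the Hd2lox Hdac1 peak of 1011 bp was at the 10.5 percentile of its own.

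Etv6, also called Tel, a repressor needed for adult blood stem cells, lies on chromosome 6 at 134035700-134270158. Hdac1 peaks ran from -1343 to 1489 bp of the start in Bry, from -862 to 989 bp in Hd1_loxlox and from -1011 to 664 bp in Hd2lox. Hdac2 had 1 promoter peak, in Bry, from -1267 to 853 bp. All 4 peaks also lay in a window of the neighbouring gene Gm46977.

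Fli1 lies on chromosome 9 at 32422204-32543432, and its peaks covered the upper annotated end. The Hdac1 peaks there were 3900 bp wide in Bry (32539918-32543817) and 3642 bp in Hd1_loxlox (32540019-32543660). By width they were at the 99.5th and 98.8th percentiles of their lists. In Bry Hdac2 had 2 peaks over that stretch, of 2451 bp (32539821-32542271) and 1428 bp (32542451-32543878), and the second reached the gene end. Neither Hd2lox list had a peak within 50 kb of Fli1, and the Hd1_loxlox Hdac2 list had none at this end.

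Etv2 lies on chromosome 7 at 30633616-30636509 and is the shortest of the 9 genes, at 2.89 kb. Its start carried a Bry Hdac2 peak of 3133 bp, from -1401 to 1731 bp, at the 98.7th percentile of width in that list. The Hd1_loxlox Hdac1 list had 2 narrower peaks, from -938 to 88 bp and from 477 to 1631 bp. The Bry Hdac1 list, both Hd2lox lists and the Hd1_loxlox Hdac2 list had none. Etv2 was thus the one gene of the 9 with Hdac2 but not Hdac1 in a promoter or gene end window in Bry.

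**Figure D2:**
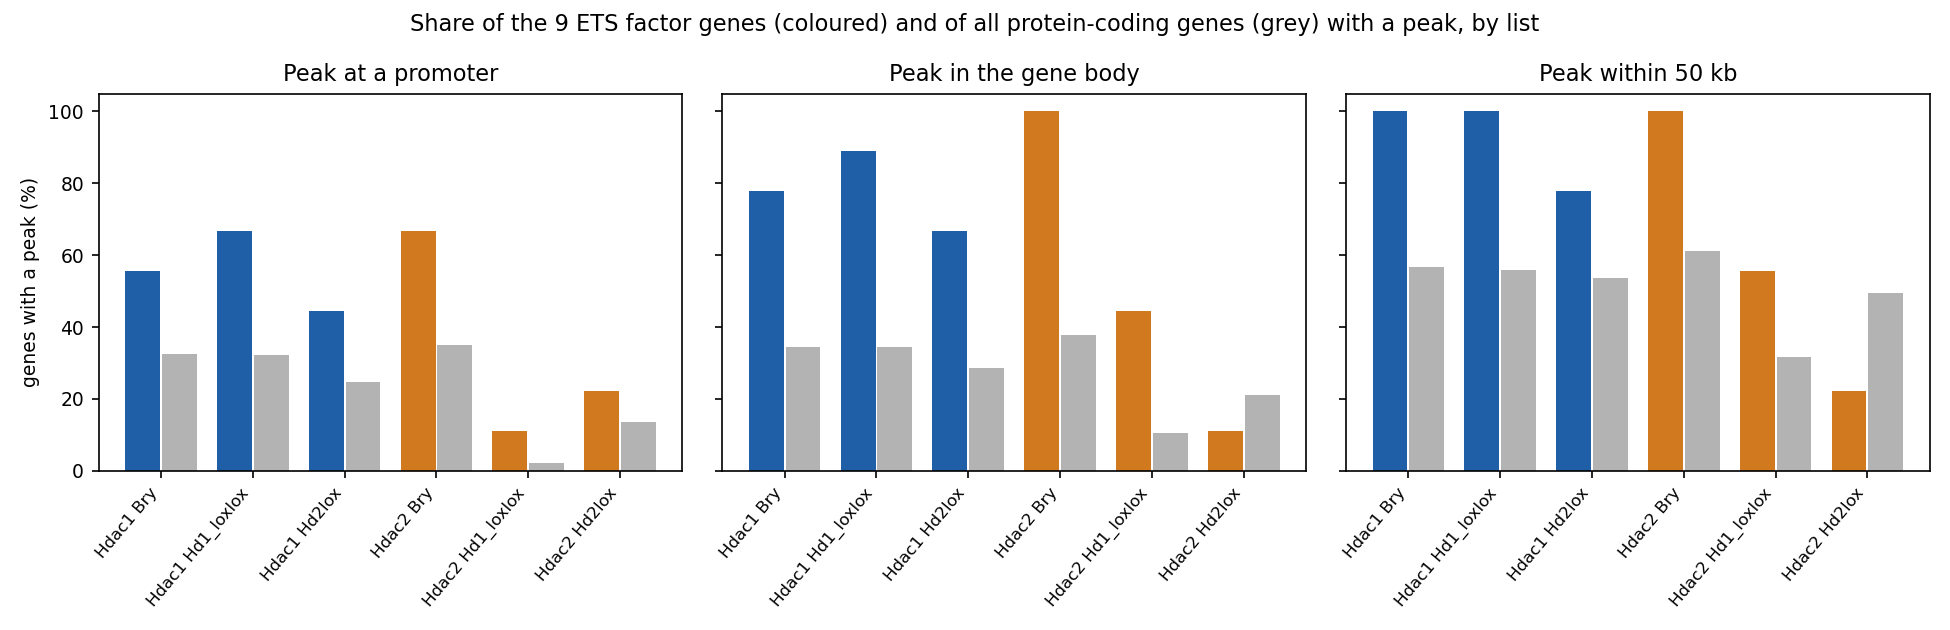
Percentage of the 9 ETS factor genes (blue for Hdac1, orange for Hdac2) and of all 21887 protein-coding genes (grey) with a peak at a promoter, in the gene body or within 50 kb, in each of the 6 lists (x axis). The coloured bar is above the grey one in every list except Hdac2 of Hd2lox, where it is lower for the gene body and within 50 kb.

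By list, Hdac1 was at promoters of 5 of the 9 genes in Bry (32.4% of all genes), 6 in Hd1_loxlox (32.3%) and 4 in Hd2lox (24.7%). The Bry Hdac2 list had 6 of them (35.1% of all genes), that of Hd1_loxlox only Elk3, as given above, and that of Hd2lox had 2 (13.6%). For the gene body, the Hdac1 counts were 7 in Bry (34.4% of all genes), 8 in Hd1_loxlox (34.4%) and 6 in Hd2lox (28.5%). For Hdac2 they were 9 in Bry (37.9% of all genes), 4 in Hd1_loxlox (10.5%) and 1 in Hd2lox (21.0%). Among genes of 50 kb or more, Hdac1 was inside 6 of 6 members in Bry (46.8% of such genes), 6 in Hd1_loxlox (47.1%) and 5 in Hd2lox (53.1%). Hdac2 was inside 6 of these 6 in Bry (54.8%), 4 in Hd1_loxlox (25.9%) and 0 in Hd2lox (46.0%). All 9 genes had a peak inside in at least 1 list, while 44.2% of all genes had none. Within 50 kb Hdac1 was at 9 genes in Bry (56.7% of all genes), 9 in Hd1_loxlox (55.8%) and 7 in Hd2lox (53.6%), while the Hdac2 lists had 9 for Bry (61.2%), 5 for Hd1_loxlox (31.7%) and 2 for Hd2lox (49.6%).

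The next comparison asked about peaks anywhere inside the genes, promoter peaks included. Hdac1 lay inside 7 of the 9 genes in at least 2 lines, all but Etv2 and Spi1, beside 33.2% of all genes. Hdac2 did so at 5 (Fli1, Erg, Ets2, Etv6 and Elk3), beside 17.9% of all genes. Gene length bears on this count, since 6 of the 9 genes (Fli1, Erg, Ets1, Etv6, Elk3 and Elf1) were 63.7 to 234 kb long and the median protein-coding gene was 17.2 kb. Among genes of 50 kb or more, Hdac1 was inside all 6 of these members and 48.7% of all such genes, and Hdac2 was inside 4 of them and 40.8%.

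A peak in 2 lines was not always the same site. Hdac2 peaks of Bry and Hd1_loxlox lay at different places in Fli1, Erg and Etv6. When a single merged region had to hold peaks of at least 2 lines, Hdac2 was left at 3 genes (Ets2, Elk3 and Elf1), beside 12.0% of all genes. Hdac1 was still at 7, beside 32.8%. At Elf1 the region reached into the gene although the Hd2lox Hdac2 peak did not. Without the Hd1_loxlox Hdac2 list, Ets2 was the 1 gene with Hdac2 inside in 2 lines, beside 13.9% of all genes.

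**Figure D3:**
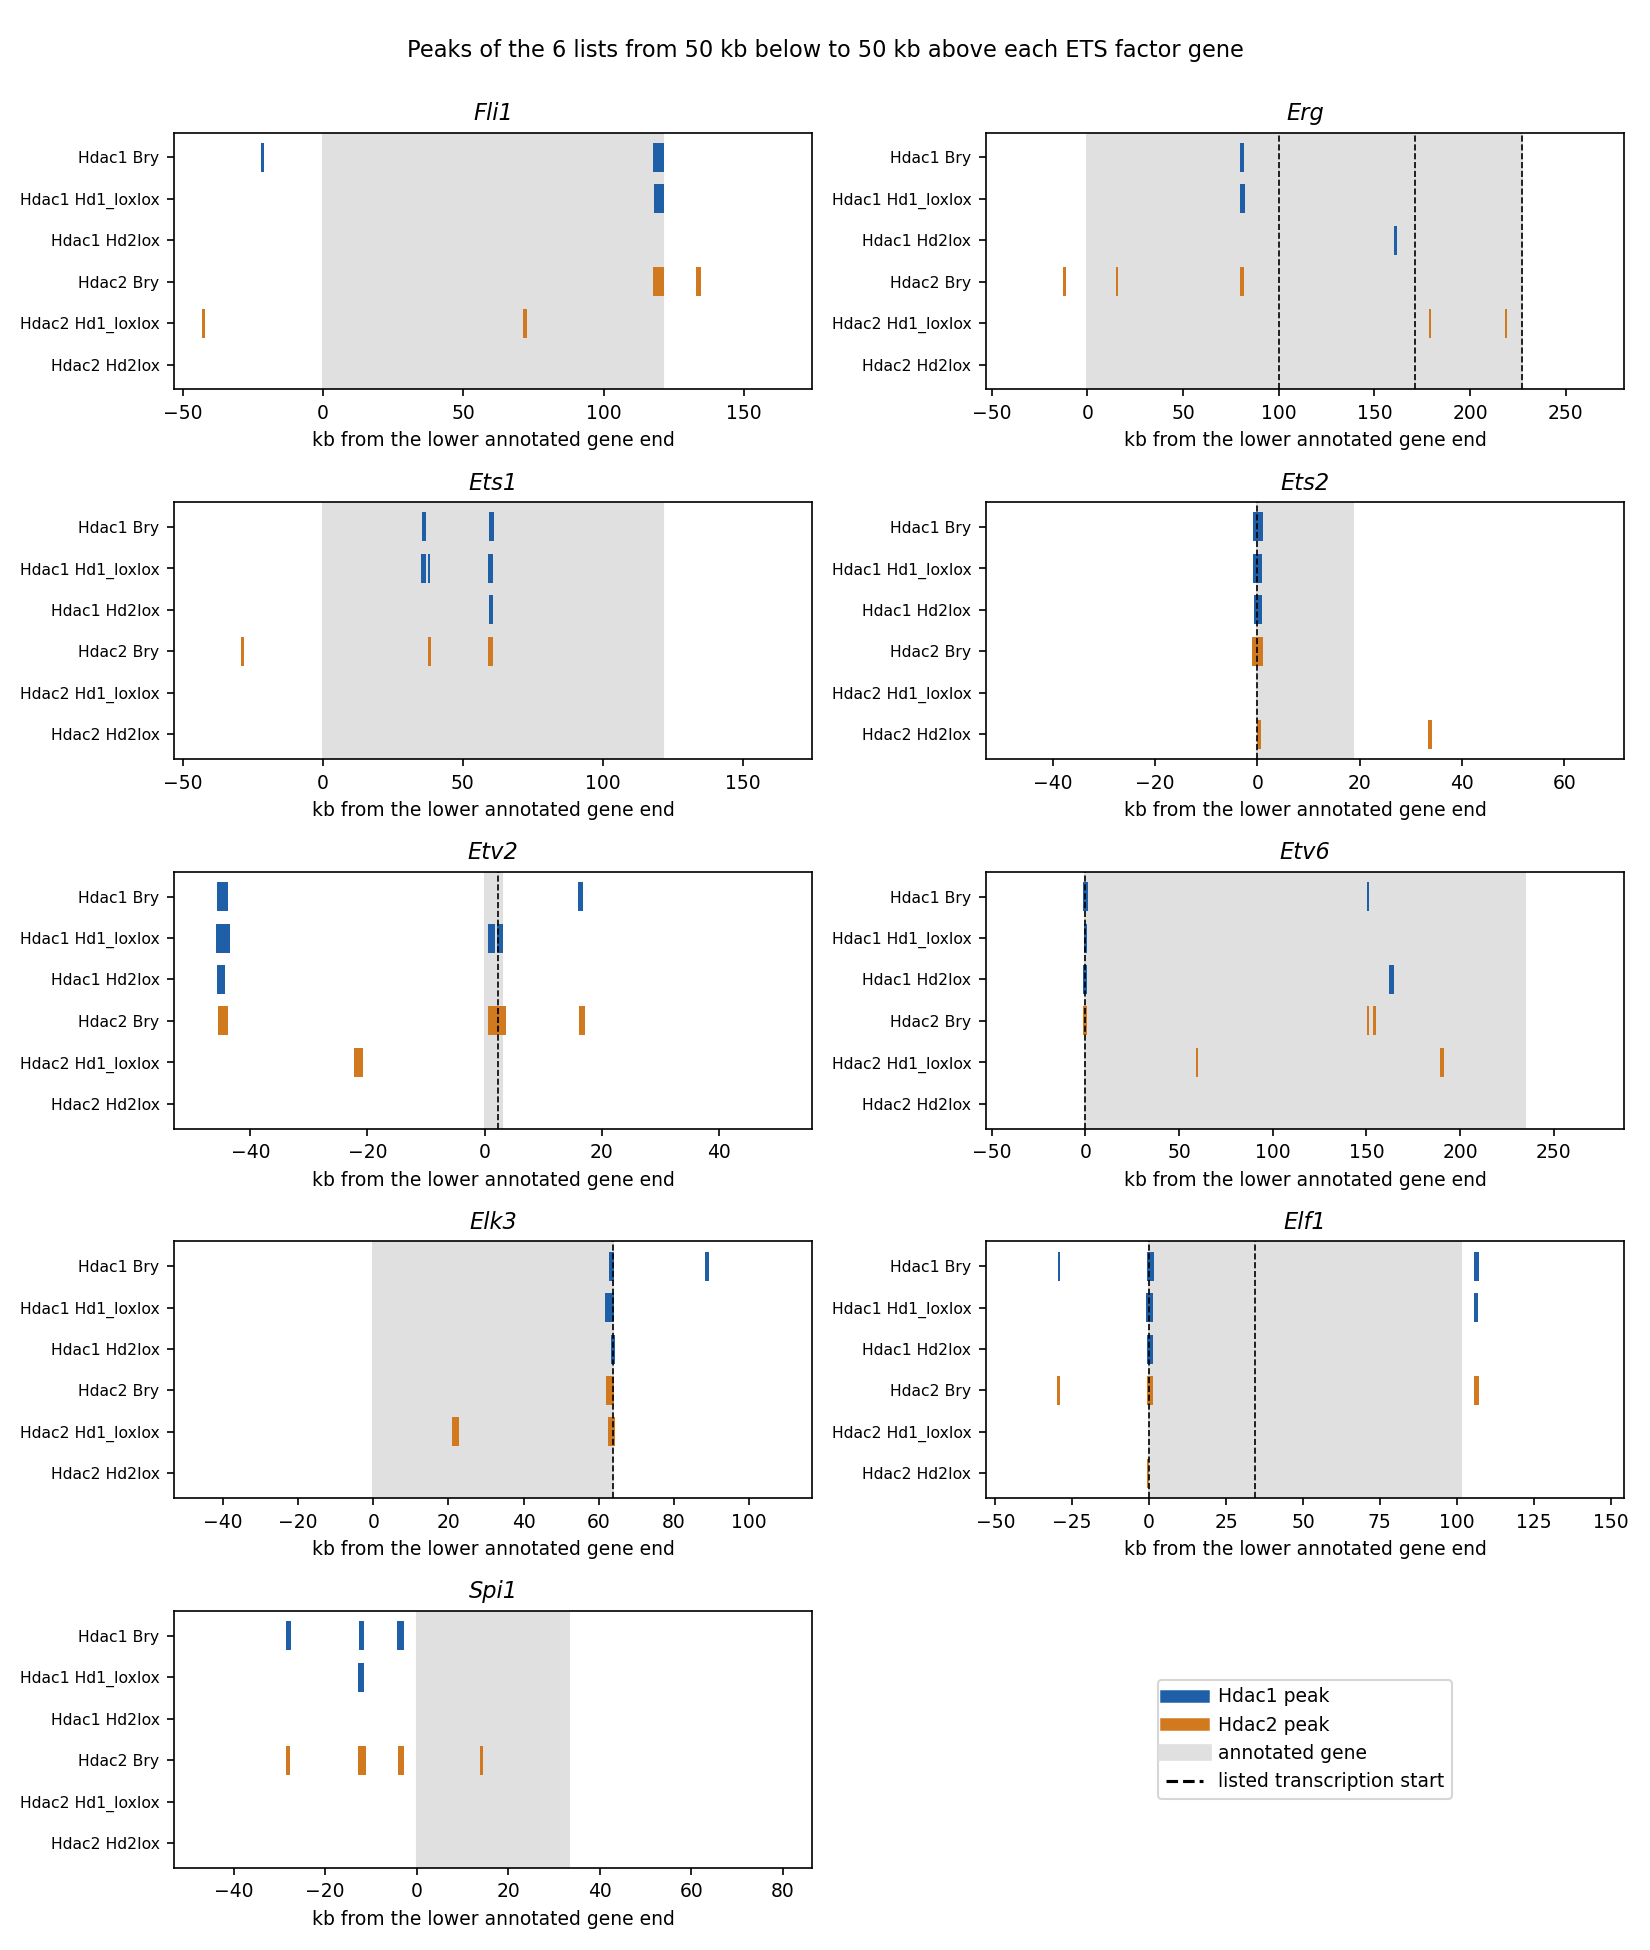
Peaks of the 6 lists (rows) at each of the 9 ETS factor genes and 50 kb to either side; the x axis gives kb from the lower annotated gene end, grey is the annotated gene, and dashed lines are listed transcription starts. Peaks of several lists stack at the starts of Ets2, Etv6, Elk3 and Elf1 and at single sites inside Erg and Ets1, while most bars of the Hd1_loxlox Hdac2 list stand alone.

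Erg, a partner of Fli1 in keeping endothelial and blood stem cell identity, had peaks inside the gene in 5 lists and at none of its 3 listed starts. It lies on chromosome 16 at 95359169-95586600. The recurrent site was at 95438691-95441708, between 17640 and 20657 bp after the lowest listed start. Hdac1 covered it with 2168 bp in Bry and 3014 bp in Hd1_loxlox, and Hdac2 with 2112 bp in Bry. The Hd2lox Hdac1 peak was elsewhere, at 95519388-95521131, and so were the 2 Hd1_loxlox Hdac2 peaks at 95537610-95538771 and 95577663-95578281. The Hd2lox Hdac2 list had no peak within 50 kb. The 3 lists at the recurrent site are those with peaks at the Fli1 end. They are also those at the Sugt1 site beside Elf1 and at the Slc39a13 site beside Spi1. At promoters 1870 genes (8.54% of all) had the same pattern as Fli1. That counts genes at promoters, and the share of sites inside genes with this pattern is not given here. The pattern is therefore not read as a link between Erg and Fli1.

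Ets1, an activator of vessel and lymphoid genes, lies on chromosome 9 at 32636241-32757820, and a gap of 92.8 kb separates it from Fli1. Its main site was inside the gene at 32695210-32697485 and held Hdac1 peaks of all 3 lines, 1868 bp wide in Bry, 1644 bp in Hd1_loxlox and 1509 bp in Hd2lox. The Bry Hdac2 peak there was 1748 bp wide. A further pair of sites lay at 32671350-32673116, with Hdac1 of Bry and Hd1_loxlox, and at 32673710-32674755, with Hdac1 of Hd1_loxlox and Hdac2 of Bry. The Hdac2 lists of Hd1_loxlox and Hd2lox had no peak within 50 kb of Ets1. Internal starts of Ets1 were not used here, so whether the main site is a promoter cannot be told.

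Inside Etv6, 4 lists gave 5 separate sites, of which 1 (134185833-134187375, at a window of Gm52920) held 2 lists, Hdac1 and Hdac2 of Bry. The widest was an Hdac1 peak of Hd2lox of 2593 bp at 134197782-134200374, the 95.6th percentile of its list. The Hd1_loxlox Hdac2 list had 2 peaks there, of 1076 and 2021 bp, neither shared with another list. Inside Elk3 the same list had an unshared peak of 1757 bp at 93268476-93270232.

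Spi1, on chromosome 2 at 91082374-91115759, had 1 peak inside, the Bry Hdac2 peak at 91096184-91096968. It was 785 bp wide, at the 0.431 percentile of its list. Internal starts of Spi1 were not used either, so whether this peak lies at a promoter cannot be told. Below the gene, Bry had an Hdac1 peak (1541 bp) and an Hdac2 peak (1454 bp) at 91078097-91079706, at no promoter window of another gene. These 2 peaks were 2.67 to 2.74 kb from the lower annotated gene end, and their distance from an internal start is not given here. Hdac1 of Hd1_loxlox had 1 peak near Spi1, at 91069494-91071307 together with both Bry lists, and that site lay at the zinc transporter gene Slc39a13. The Hd2lox lists and the Hd1_loxlox Hdac2 list had none within 50 kb.

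Within 50 kb, Hdac1 was near all 9 genes in at least 2 lines, beside 56.7% of all genes, and Hdac2 near 7, all but Ets1 and Spi1, beside 49.2%. Longer genes have longer windows, and among genes of 50 kb or more the counts were 6 of 6 members beside 64.2% for Hdac1, and 5 of 6 beside 63.0% for Hdac2. Much of this lay at neighbours. Of 15 sites in the flanks, 8 overlapped a promoter window of another gene, such as Kmt2b beside Etv2, Sugt1 and Kbtbd6 beside Elf1, and Psmc3 beside Spi1. Counting peaks at no promoter window of another gene left 4 genes for Hdac1 (Fli1, Erg, Ets1 and Elk3), beside 25.1% of all genes, and 4 for Hdac2 (Fli1, Erg, Etv6 and Elk3), beside 27.6%. This also removed the promoter peaks of Elf1 and Etv6 and 4 of the 5 of Ets2, which lie in windows of neighbours. Without the Hd1_loxlox Hdac2 list, Hdac2 was near 2 genes in 2 lines, Ets2 and Elf1, beside 38.3% of all genes. Those are also the 2 genes near Hdac2 peaks of Hd2lox.

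In all, 76 peaks lay within 50 kb of the 9 genes and merged into 37 sites. Of these, 19 were in 1 list (51.4%, beside 62.4% of 24761 sites of the whole series) and 6 were in 4 lists or more (16.2%, beside 14.7%). The 6 sites were the starts of Ets2, Elf1, Elk3 and Etv6, the main site in Ets1 and the Kmt2b site beside Etv2. None was in all 6 lists, and no member had promoter peaks in 6 (0.429% of all genes). Within Bry, 15 of 18 Hdac1 peaks overlapped a Bry Hdac2 peak (83.3%, beside 79.7% of that whole list), and 16 of 24 Hdac2 peaks overlapped a Bry Hdac1 peak (66.7%, beside 66.1%). Within Hd1_loxlox 1 of 14 Hdac1 peaks and 1 of 9 Hdac2 peaks overlapped the other antibody, both at Elk3 (7.14%, beside 4.26% of the whole list, and 11.1%, beside 6.2%). Within Hd2lox 2 of 8 Hdac1 peaks (25.0%, beside 43.3%) and 2 of 3 Hdac2 peaks (66.7%, beside 36.1%) did, at Ets2 and Elf1. Of the 9 Hd1_loxlox Hdac2 peaks 8 were in no other list, as were 91.5% of that whole list.

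The last comparison set Hdac1 against Hdac2 in the length covered by peaks, the bp under peaks in the gene and 50 kb to either side. None of the 9 genes had all Hdac1 lists above or below all Hdac2 lists. Over 17636 genes with a peak in the window, Hdac1 was higher without overlap at 6.71% and Hdac2 at 0.522%. The mean was higher for Hdac1 at all 9 genes, beside 70.6% of these genes. It was so at 8 without Bry, at 4 without Hd1_loxlox, at 5 without Hd2lox and at 5 without the Hd1_loxlox Hdac2 list alone. The shares of all genes under these omissions are not given here, so whether the fall is particular to the members cannot be told. The exact two-sided permutation test of 3 lists against 3 cannot give a p below 0.1, so no gene could pass 0.05, and 0 of the genes tested did so with or without Benjamini-Hochberg adjustment.

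**Figure D4:**
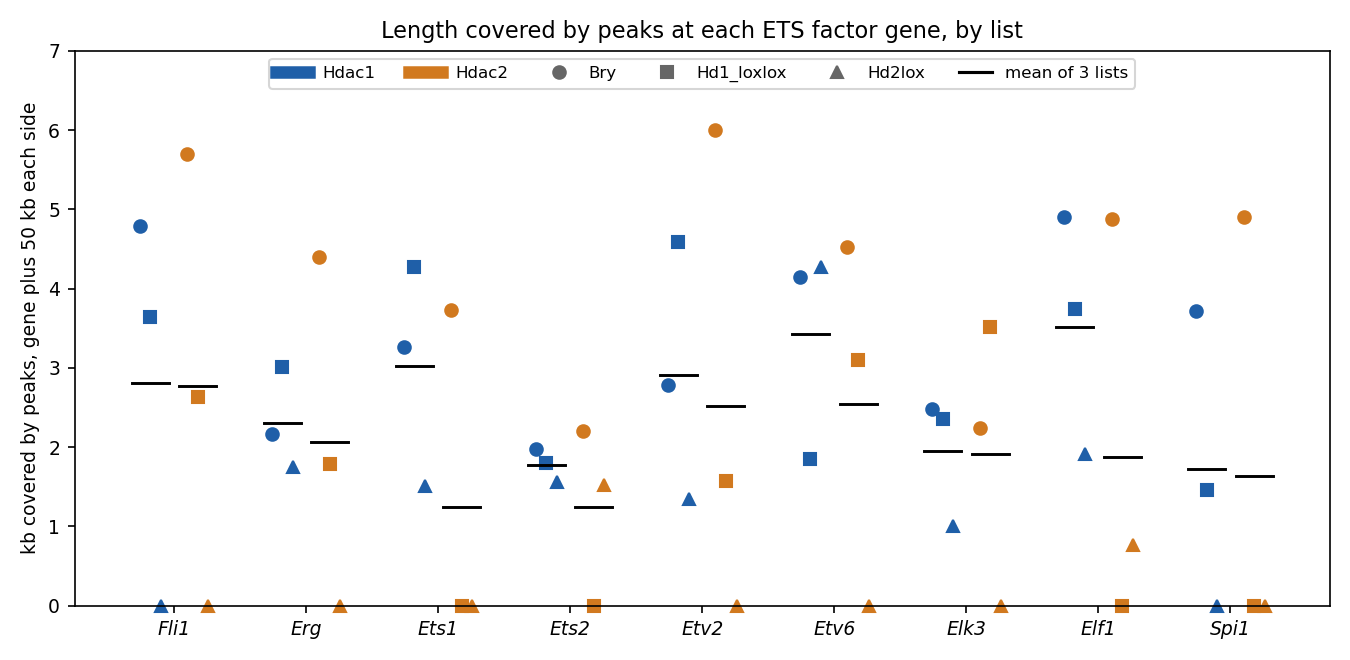
Length covered by peaks (kb) in each of the 9 ETS factor genes with 50 kb to either side; each point is 1 list, coloured by antibody and shaped by line, and black bars are means of 3 lists. The Bry Hdac2 point (orange circle) is the highest Hdac2 value at every gene except Elk3, and the Hd2lox Hdac2 point (orange triangle) lies at 0 for 7 of the 9 genes.

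With all 6 lists, Ets1 and Elf1 showed the largest gaps of the 9 between the antibodies. Without the Hd1_loxlox Hdac2 list, which had no peak within 50 kb of either, the differences were 1156 bp at Ets1 and 699 bp at Elf1. Those at Etv6 and Elk3 were then 1163 and 830 bp. At Ets1 the covered length was 3268 bp in Bry, 4276 in Hd1_loxlox and 1509 in Hd2lox for Hdac1, and 3724, 0 and 0 bp in the same order for Hdac2. The difference, Hdac1 minus Hdac2, was 1776 bp (exact permutation p = 0.3, adjusted p = 0.944 over all genes tested, Hdac1 higher in 2 of 3 lines). At Elf1 Hdac1 covered 4902, 3744 and 1910 bp, and Hdac2 4879, 0 and 760 bp. The difference was 1639 bp (exact permutation p = 0.3, adjusted p = 0.944), with Hdac1 higher in all 3 lines but by 23 bp in Bry. Means were 3018 ± 1400 against 1241 ± 2150 bp at Ets1 and 3519 ± 1509 against 1880 ± 2625 bp at Elf1 (SD, n = 3 each).

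The lines differed in sign at 8 of the 9 genes, all but Elf1, beside 47.9% of all genes tested. A gene was tested with a peak in 1 list, while opposite signs need peaks in at least 2 lines. Within 50 kb, 8 of the 9 members had peaks in 4 lists or more, as did 50.4% of all genes. Etv6 had 4152, 1852 and 4269 bp of Hdac1 in Bry, Hd1_loxlox and Hd2lox, and 4522, 3097 and 0 bp of Hdac2 (difference 885 bp, exact permutation p = 0.7). Elk3 had 2476, 2361 and 1011 bp of Hdac1, and 2238, 3510 and 0 bp of Hdac2 (difference 33 bp, exact permutation p = 1). Hdac2 exceeded Hdac1 in Hd1_loxlox at these 2 genes and at no other of the 9. Ets2 had the narrowest spread for Hdac1, with 1970, 1804 and 1554 bp, beside 2207, 0 and 1527 bp for Hdac2 (difference 531 bp, exact permutation p = 0.6).

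At Etv2, Fli1, Erg and Spi1 Hdac2 covered more than Hdac1 in Bry, as it also did at Ets1, Ets2 and Etv6. The Bry Hdac2 list was also the longer, with 9279 peaks against 7671, and the share of all genes by line is not given here. Etv2 had 2782, 4589 and 1346 bp of Hdac1 and 5998, 1569 and 0 bp of Hdac2 in Bry, Hd1_loxlox and Hd2lox. Fli1 had 4788, 3642 and 0 bp of Hdac1 and 5703, 2626 and 0 bp of Hdac2. In Hd1_loxlox Hdac1 covered more at all 4. Erg had 2168, 3014 and 1744 bp of Hdac1 and 4395, 1781 and 0 bp of Hdac2. Spi1 had 3720, 1463 and 0 bp of Hdac1 and 4903, 0 and 0 bp of Hdac2. The mean differences were 383 bp at Etv2, 34 at Fli1, 250 at Erg and 93 at Spi1, each below the SD of either antibody (exact permutation p between 0.9 and 1).

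Other genes of the family and its circle were read by the same promoter rule, with no test. Of 17 other ETS family genes, 6 had Hdac1 in at least 2 lines (35.3%) and 3 had Hdac2 (17.6%), beside the 30.8% and 10.8% of all genes given above. Elk4, Elf2 and Erf, a repressor of ETS target genes, were in 5 lists. Erf had the pattern of Elk3, with the Hd1_loxlox and not the Hd2lox Hdac2 list. Elk1, Elf3, Elf5, Ehf, Fev, Spdef, Spib and Spic, 8 of the 17, were in none, beside 52.0% of all genes. Of 8 partner genes of Fli1, Erg and Spi1, 5 had Hdac1 and 1 had Hdac2. Gata2 was in 5 lists, and Lmo2 and Gata1 were in none. Of 16 endothelial genes known as ETS targets, 5 had Hdac1 and 1 had Hdac2. Egfl7 was in 5 lists. Tek, Tie1, Eng, Vwf, Esam, Icam2, Notch4 and Robo4, 8 of the 16, were in none, beside the same 52.0% of all genes.

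Genes most like a member were those with the same pattern over the 6 lists at promoters and the nearest median peak width. The pattern of Elk3 was the rarest of the 5 patterns, with 63 other genes (0.288% of all), and the nearest in width were Vti1a, Zdhhc6 and Enah. The pattern of Etv2 had 347 other genes, with Arl5c, Lbh and Tspyl1 nearest. Fli1 shared its pattern with 1870 genes and was nearest to Junb, Nrp1, the neuropilin gene of endothelium, and Ier2. Ets2 and Elf1 shared 1 pattern with 1451 genes. Nearest to Ets2 were Rxrb, Slc39a7 and Msantd2, and nearest to Elf1 were Wbp4, which shares its peaks, Gabpb1 and Mdga1. Etv6 shared its pattern with 1393 genes and was nearest to Gm46977, which shares its peaks, to Hdac2, the gene of 1 of the proteins precipitated, and to Tet2, a DNA demethylase gene.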

How the data were processed

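The deposited values are positions: for each of 6 ChIP libraries the authors deposited 1 BED list of peak coordinates, 46202 peaks in all, with no score or count. Bowtie2 2.2.9, SAMtools 1.3.1, MACS2 2.1.1.20160309, bcl2fastq and mm10 are named in the submitters' processing notes. How MACS2 was run, and whether against input, is not given in the sources used here.

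Positions are given 1-based. Genes came from the RefSeq table of GRCm38.p6, and starts and sequences from the RefSeq promoter table of the same build, with starts for 17492 of 21887 protein-coding genes. The other 4395 genes, and 3 of the members, had windows at both gene ends. A peak counted with an overlap of 1 bp or more. Peaks of the 6 lists were merged into sites where they overlapped.

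Covered lengths were compared by exact two-sided permutation of 3 lists against 3, with Benjamini-Hochberg adjustment over 17636 genes. The lists of an antibody pair by line, since the labels give the cell line, and a sign-flip test by line was the paired alternative. Nothing states how many cultures each line had. A p-value here reflects variation among 3 libraries, each of a different line. That variation holds differences of line and passage and may be partly technical. All 9 members were named, and other genes by fixed lists. The members and lists were chosen with earlier results of these data known. Counting functions were tested on simulated data with Python 3.11.15, numpy 2.4.6 and pandas 2.3.3. Alternatives were other windows, overlaps and distances, wider peaks only, and omission of each line or of the Hd1_loxlox Hdac2 list.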

Additional observations from a re-analysis of the deposited data

Results flagged for a closer look

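In 8 of the 9 genes the covered length within 50 kb, Hdac1 minus Hdac2, was positive in 1 line and negative in another. The same was so for 47.9% of 17636 genes. Each value compares 1 library with 1 library, and the differences between lines were not tested. A gene entered the 17636 with a peak in 1 list, while opposite signs need peaks in at least 2 lines.

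In Bry Hdac2 covered more at 7 genes: the difference was -915 bp at Fli1, -2227 at Erg, -456 at Ets1, -237 at Ets2, -3216 at Etv2, -370 at Etv6 and -1183 at Spi1. In Hd1_loxlox Hdac1 covered more at 6 of these, by 1016 bp at Fli1, 1233 at Erg, 4276 at Ets1, 1804 at Ets2, 3020 at Etv2 and 1463 at Spi1, and the difference was -1245 bp at Etv6. In Hd2lox Hdac1 covered more at 5 of the 7, by 1744 bp at Erg, 1509 at Ets1, 27 at Ets2, 1346 at Etv2 and 4269 at Etv6. At Elk3 the difference was 238 bp in Bry, -1149 in Hd1_loxlox and 1011 in Hd2lox. The share of all genes with each sign in a single line is not given here, so these counts set no member apart. The Bry Hdac2 list held 9279 peaks against 7671 for Bry Hdac1, and the Hd1_loxlox Hdac2 list held 5161 against 7490 for Hdac1. Whether list size bears on these signs was not tested.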

How the results depend on the processing

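The Hdac1 counts at promoters and in gene bodies stayed within 1.5 times their value under every alternative tried. The Hdac2 counts did not. With wider peaks only (at or above the median width of their list), Hdac2 was at the promoter of 1 gene in place of 3, as the share of all genes went from 10.8% to 5.33%. Without Bry the Hdac2 counts were 0 at promoters, in gene bodies and within 50 kb (0.649%, 4.52% and 19.4% of all genes). Without Hd1_loxlox they were 2, 1 and 2 in the same order (10.0%, 13.9% and 38.3%). Without Hd2lox they were 1, 4 and 5 (1.26%, 6.13% and 24.5%). Without the Hd1_loxlox Hdac2 list they were 1 in gene bodies and 2 within 50 kb. In these omissions the rule of 2 lines asked for both remaining Hdac2 lists, so no Hdac2 count could rise. Peaks at no promoter window of another gene, an alternative chosen after seeing the data, left 4 genes within 50 kb for Hdac1 and 4 for Hdac2. Windows at both gene ends for every gene, also added later, gave the same 5 and 3 genes at promoters.

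The mean covered length was higher for Hdac1 at all 9 genes, and at 9 with the replicate block by line (smallest paired p 0.25). It was higher at 4 to 8 without each line in turn, at 5 without the Hd1_loxlox Hdac2 list and at 5 with wider peaks only. The shares of all genes in these settings are not given here. With no p below 0.1 possible, no difference could pass 0.05 in any setting. The sign turned as follows (Hdac1 minus Hdac2, bp). Without each line in turn the difference ranged from -458 to 508 at Fli1, from -497 to 1488 at Erg, from -105 to 916 at Ets2, from -935 to 2183 at Etv2, from -808 to 1950 at Etv6, from -456 to 624 at Elk3 and from -592 to 732 at Spi1. Without the Hd1_loxlox Hdac2 list it was -42 at Fli1, -91 at Ets2, -93 at Etv2 and -724 at Spi1. With wider peaks only it was -262 at Fli1, -744 at Etv2, -1129 at Elk3 and -573 at Spi1. Within 20 kb it was -365 at Etv2 and -370 at Elk3, and in the gene body -163 at Etv2, -446 at Elk3 and -262 at Spi1. The cause of these turns was not tested.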
